A study of Mus musculus with 26 samples.

Results

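The 32 genes described here encode chaperones, disulfide enzymes, translocation and degradation factors of the endoplasmic reticulum (ER), together with the sensors of the unfolded protein response. They were chosen as a list of gene symbols. All 32 were found among the 20430 genes of the RNA tables and among the 19941 genes of the ribosome footprint tables. They were followed in NIH3T3 cells, an established mouse embryonic fibroblast line, by RNA-seq on polyA-selected RNA and by ribosome profiling, a method that sequences the stretches of mRNA shielded by ribosomes (footprints). RNA came from 8 groups. The heat experiment held cells at 44 °C for 2 h, cells at 42 °C for 8 h and a heat control. The H2O2/KCl experiment held cells under oxidative stress from H2O2 for 2 h or 7 h, cells under osmotic stress from KCl for 2 h or 7 h, and a control that both agents shared. Footprints came from the 5 groups of the H2O2/KCl experiment. Each group had 2 libraries. The sources used here do not state the concentrations of H2O2 and KCl or the temperature of the controls.

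Proteins that enter the secretory pathway fold in the ER, where HSP70 and HSP90 type chaperones, lectin chaperones and disulfide isomerases act on them. When unfolded proteins accumulate, 3 membrane sensors, IRE1 (gene Ern1), PERK (Eif2ak3) and ATF6, signal to the nucleus, and the factors they activate raise chaperone and degradation genes. PERK also lowers general translation. Footprint values here are scaled to each library's own total, so they show changes relative to other genes and not a general fall. IRE1 removes an intron from Xbp1 mRNA to give an active factor. The gene-level counts used here do not tell the cut and uncut forms of Xbp1 apart.

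All 8 fibroblast markers examined were above 1 TPM in every RNA library (a level scaled by transcript length and library size). Their summed RNA level ran from 4147 to 11276 TPM. Of the 9 markers of other cells, the muscle genes Myod1 and Myog, the leukocyte gene Ptprc, the endothelial gene Cdh5 and the epithelial gene Cdh1 stayed below 1 TPM in every RNA library. The leukocyte marker Cd68 ran from 5.32 to 44.7 TPM, the epithelial markers Krt18 from 6.46 to 17.2 and Epcam from 0.25 to 1.12, and the endothelial marker Pecam1 from 0 to 2.14. Their part in the results was not tested. RNA libraries held 24441877 to 45244430 expected counts and footprint libraries 1460751 to 5168537. The labels number the replicates without saying whether they were separate cultures, so the p-values measure the spread between these libraries, which may be technical. In bulk samples, fewer cells of a type and less RNA per cell cannot be told apart. Levels are given as CPM (counts scaled to TMM-normalized library size) unless TPM is named, with the first and the second library of a group parted by a slash, and differences as log2 fold changes ± the standard error of the fit. A gene was called higher or lower where the edgeR quasi-likelihood test gave a Benjamini-Hochberg adjusted p under 0.05 over all genes tested. Of the 32 genes, 31 had enough counts to be tested in every fit. Derl3, a member of the derlin family of degradation factors, had 0 to 10 counts in the RNA libraries and 0 to 1 in the footprint libraries, and was not tested.

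The ER stress element, the letters CCAAT, 9 further bases and CCACG, is the classical promoter sequence through which ATF6 and XBP1 raise chaperone genes. Promoter windows of 250 bases before to 50 after the start were held for 26 of the 32 genes in RefSeq (GRCm38.p6), and searched on both strands. The element was present in 9 of these 26 genes, while it was in 0.119% of all 32851 windows. The element is already known from chaperone genes, so its greater share here is not an independent result. The stretches of these 9 genes are shown, written 5′ to 3′ in the direction of the gene. Capitals mark the 2 fixed parts of each element, which read as CGTGG and ATTGG where the element lies on the opposite strand.
Hspa5 (chr2:34772010-34772058, plus strand): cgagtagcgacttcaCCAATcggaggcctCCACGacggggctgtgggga
Calr (chr8:84847060-84847108, minus strand): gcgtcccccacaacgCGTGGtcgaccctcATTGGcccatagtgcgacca
Canx (chr11:50325785-50325833, minus strand): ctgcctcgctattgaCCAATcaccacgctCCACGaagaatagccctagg
Creld2 (chr15:88819505-88819553, plus strand): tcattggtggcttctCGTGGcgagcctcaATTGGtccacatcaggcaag
Dnajc3 (chr14:118937812-118937860, plus strand): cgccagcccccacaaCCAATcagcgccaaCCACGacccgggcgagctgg
Pdia6 (chr12:17266476-17266524, plus strand): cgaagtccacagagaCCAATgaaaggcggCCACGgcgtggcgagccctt
Syvn1 (chr19:6046517-6046565, plus strand): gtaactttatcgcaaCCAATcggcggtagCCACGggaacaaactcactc
Derl3 (chr10:75893227-75893275, plus strand): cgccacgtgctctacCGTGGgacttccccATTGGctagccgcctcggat
Hsp90b1 (chr10:86705518-86705671, minus strand): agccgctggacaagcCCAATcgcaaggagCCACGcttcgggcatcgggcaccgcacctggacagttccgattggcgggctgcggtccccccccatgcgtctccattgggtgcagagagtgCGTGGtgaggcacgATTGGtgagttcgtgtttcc

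Each of these stretches lies before the annotated start of its gene, and that of Hsp90b1 holds 2 elements. A second form, ATTGG, 1 base and CCACG, shares the CCACG part. It was found before the start of Herpud1 and after the start of Dnajb11, and in 0.0365% of all windows.
Herpud1 (chr8:94386362-94386402, plus strand): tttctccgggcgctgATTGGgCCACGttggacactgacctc
None of the printed stretches held both forms. The letters TGACGTGG, an XBP1 binding element whose other strand also contains CCACG, were in 0 of the 26 genes and in 0.676% of all windows. A heat shock element, GAANNTTCNNGAA, was likewise in 0 of the 26 genes and in 0.603% of all windows. A match is a stretch of letters and not a measured binding site.

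In unstressed cells the most abundant RNAs of the list were those of Calr, Hsp90b1 and Hspa5, and the sensors Atf6, Eif2ak3 and Ern1 lay near the low end. In the control of the H2O2/KCl experiment the RNA level of Calr, the lectin chaperone calreticulin, was 1939.9 ± 100.1 TPM (SD, n = 2), the highest of the 32 genes. Hsp90b1 (GRP94, the HSP90 of the ER) followed at 1255 ± 82.8 TPM and Hspa5 (BiP, the HSP70 of the ER) at 1243 ± 73.9 TPM, and those 2 did not differ beyond their spread. Pdia3 and P4hb, both disulfide isomerases, lay next at 926 ± 96.9 and 915 ± 64.6 TPM and did not differ beyond theirs. At the other end of the order, Dnajb9 (ERdj4, a J protein of the HSP70 system) stood at 17.1 ± 1.43 TPM, Wfs1 (wolframin, an ER membrane protein) at 11.3 ± 0.0495 and Ern1 at 10.1 ± 0.205. Atf6 and Eif2ak3 lay close together at 19.9 ± 0.346 and 19.7 ± 0.297 TPM and did not differ beyond their spread. In the heat control the order from Calr to Hspa5 was the same, with Ern1 again the lowest of the 31 genes tested, at 13 ± 0.325 TPM. In the footprint control Calr also came first, at 1849 ± 457 TPM, and Hspa5 followed at 1591 ± 361 TPM, with SDs that overlap. The log2 ratio of footprint TPM to RNA TPM in that control (1 added to each mean) had a median of -0.01 over the 31 genes and of -0.58 over the 10480 genes with both measures. 6 of the 31 lay below the median of all genes. The ratio was -1.25 for Eif2ak3, the lowest of the 31, and 1.33 for Ssr1, a subunit of the translocon-associated complex, the highest. The part of RNA abundance or of transcript structure in this ratio was not tested.

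**Figure D1:**
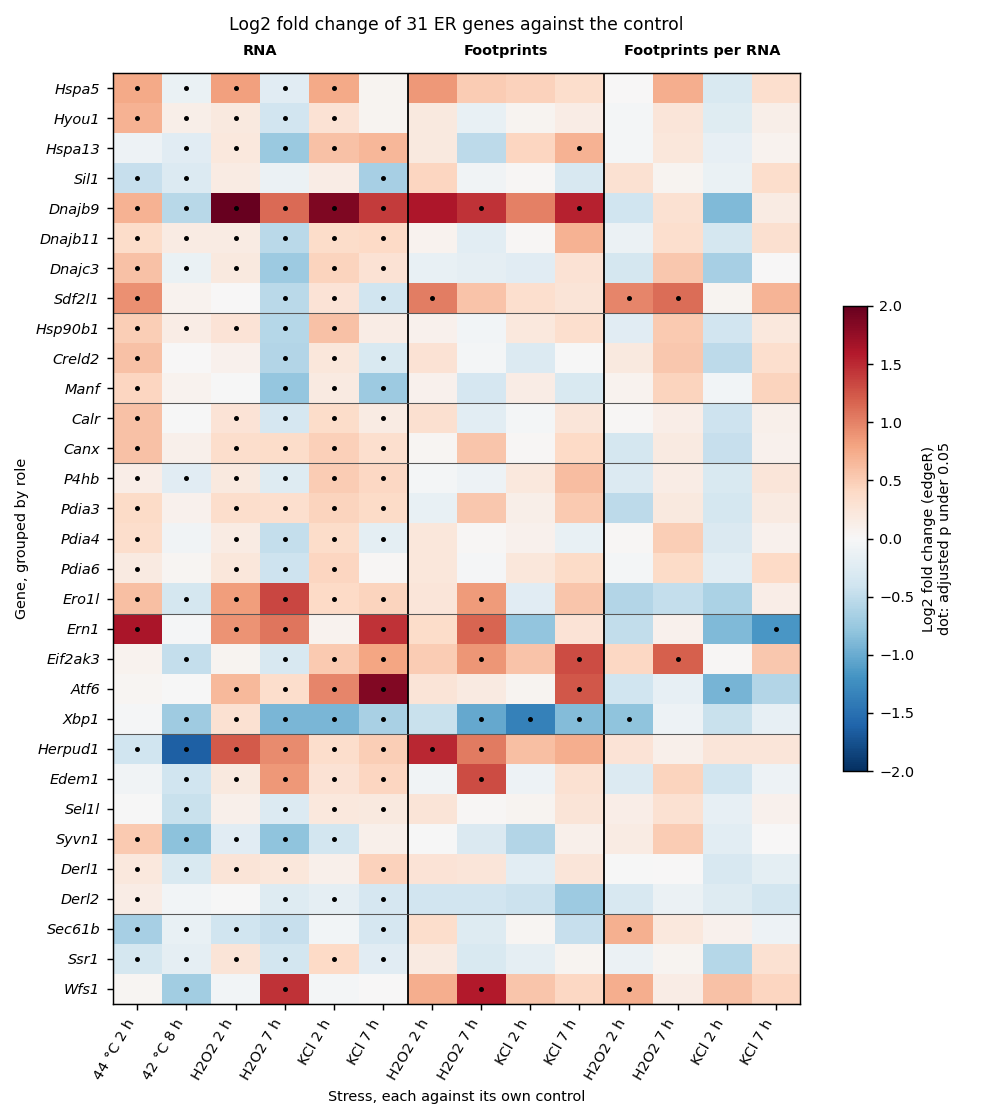
Log2 fold changes of the 31 tested genes (rows, grouped by role) against the control, for RNA in 6 stresses and for footprints and footprints per RNA in 4, with red higher, blue lower and dots for an edgeR adjusted p under 0.05. In the RNA columns dots fill most cells at every stress, with 24 genes called at 44 °C and 30 at 7 h of H2O2, while 8 genes were called in footprints at 7 h of H2O2.

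RNA of these genes was mostly higher in the first heat group and mostly lower in the second. At 44 °C for 2 h, 20 of the 31 genes were higher and 4 lower than in the heat control. Over all 12747 genes tested 35.4% were higher and 35.7% lower, so the share higher was above the background and the share lower below it. The median log2 fold change was 0.35 for the 31 genes and 0.00 for all genes. At 42 °C for 8 h, 3 were higher and 17 lower, beside 31.7% and 31.9% of all genes, and the medians were -0.14 and -0.01. On log2(TPM + 1), a scaling that moved the median of all genes at 42 °C to -0.16, 0 were higher and 25 lower. Between the 2 heat groups 27 of the 31 genes were lower and 3 higher at 42 °C than at 44 °C, beside 37.2% and 37.9% of all genes. The 2 heat groups differ in both temperature and time, and the parts of these cannot be told apart.

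H2O2 and KCl gave a similar count of rises at 2 h. After 2 h of H2O2, 21 genes were higher and 2 lower, beside 27.3% and 26.5% of the 13256 genes tested. The median log2 fold change was 0.20, and the count rested on single libraries. Without the first H2O2 2 h library the count was 9 higher and 2 lower, and without the second control library 10 higher and 2 lower. After 2 h of KCl, 23 were higher and 3 lower, beside 27.2% and 27% of all genes. At 7 h the agents parted. After 7 h of H2O2, 10 were higher and 20 lower, beside 39.4% and 31.1% of all genes, with a median of -0.33 against 0.08. After 7 h of KCl, 16 were higher and 9 lower, beside 37.2% and 31.6%. That share of genes lower was near the background. Across the 6 stresses, 25 of the 31 genes were called higher in at least 1 stress and lower in at least 1 other. 4 were called higher in some and lower in none, and 2 lower in some and higher in none. The share of all genes with calls in both directions was not computed. Calls were common over all genes, so these counts are not read as a trait of this list.

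**Figure D2:**
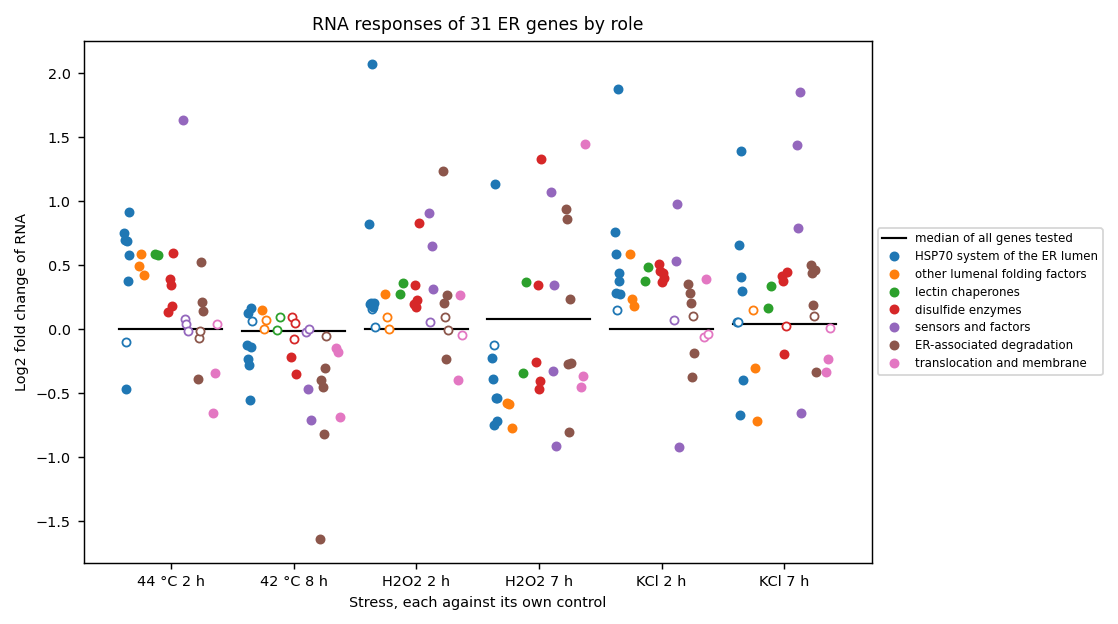
Log2 fold change of RNA (vertical axis) of each of the 31 tested genes against its control in 6 stresses (horizontal axis), coloured by role, with filled points for an edgeR adjusted p under 0.05, open points for the rest and black bars for the median of all genes tested. The highest point is Dnajb9 at 2 h of H2O2, at 2.07, and the lowest Herpud1 at 42 °C, at -1.64.

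The sensors and their factor Xbp1 did not move as a block. Ern1, on chromosome 11 from 106397620 to 106487796, encodes IRE1, the kinase and RNase that cuts Xbp1 mRNA. Its RNA stood at 23.7/22.8 CPM in the heat control, 69.8/74.5 at 44 °C and 22.5/23.4 at 42 °C. The 2 libraries at 44 °C lay well above all the others, and the 42 °C libraries overlapped the control. The log2 fold change at 44 °C was 1.63 ± 0.06 (edgeR adjusted p = 1.91e-11), a level 3.10 times that of the control, and at 42 °C it was -0.02 ± 0.06 (adjusted p = 0.791). Ern1 was the single gene of the 31 past a doubling at 44 °C. In the H2O2/KCl experiment Ern1 stood at 18/18.4 CPM in the control, 31.8/36.3 and then 38.7/37.5 under H2O2, and 18.4/19.9 and then 47/51.9 under KCl. Both H2O2 groups and the later KCl group lay above the control without overlap. Log2 fold changes were 0.90 ± 0.08 and 1.07 ± 0.08 under H2O2, 0.07 ± 0.09 at 2 h of KCl (edgeR adjusted p = 0.515) and 1.44 ± 0.08 at 7 h (adjusted p = 3.03e-09).

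Atf6, on chromosome 1 from 170704457 to 170868585, encodes a membrane-bound factor that is cut in the Golgi to free its active part. Its RNA did not pass the test under heat, with log2 fold changes of 0.04 ± 0.05 and 0.00 ± 0.05. In the other experiment it stood at 68.7/66.6 CPM in the control, 103/109.8 at 2 h and 81.9/90.01 at 7 h of H2O2. Under KCl it reached 126/140.1 CPM at 2 h and 246/242 at 7 h. All 4 stressed groups lay above the control, and the 2 libraries at 7 h of KCl lay above all others. The log2 fold change was 0.65 ± 0.07 and 0.34 ± 0.07 after 2 h then 7 h of H2O2, and 0.98 ± 0.07 and 1.85 ± 0.07 after 2 h then 7 h of KCl (edgeR adjusted p = 7.05e-11 at 7 h). That last value was the largest change of the 31 genes at 7 h of KCl. The difference between H2O2 and KCl at 7 h was -1.51 ± 0.07, and Atf6 was higher at 7 h than at 2 h of KCl by 0.87 ± 0.07.

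Eif2ak3, on chromosome 6 from 70844484 to 70905241, encodes PERK, the kinase that phosphorylates the translation factor eIF2. Its RNA stood at 45.7/46.4 CPM in the heat control, 46.9/50.2 at 44 °C and 32/34.6 at 42 °C, where it fell by 0.47 on the log2 scale (edgeR adjusted p = 9.11e-06). In the H2O2/KCl control it stood at 39.7/39.2 CPM, at 7 h of H2O2 at 30.8/32.2 and at 7 h of KCl at 63.3/72.9. The 7 h groups of the 2 agents lay on opposite sides of the control. The log2 fold changes at 7 h were -0.33 ± 0.08 under H2O2 and 0.79 ± 0.07 under KCl, and the test of the difference gave -1.11 ± 0.08 (adjusted p = 5.80e-09). The earlier log2 fold change, at 2 h, was 0.05 ± 0.07 under H2O2 (adjusted p = 0.582) and 0.53 ± 0.07 under KCl, where libraries stood at 55/58.9 CPM.

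Xbp1, on chromosome 11 from 5520641 to 5525993, encodes the factor made from the mRNA that IRE1 cuts. Its RNA fell in 4 of the 6 stresses. In the heat experiment it stood at 58.3/61.8 CPM in the control, 61.5/57.2 at 44 °C and 36.6/37 at 42 °C. The 42 °C libraries lay below all others of that experiment, with a log2 fold change of -0.71 ± 0.06 (edgeR adjusted p = 8.67e-08). The H2O2/KCl control stood at 40.5/33.6 CPM, H2O2 at 48.2/44 at 2 h and 20.6/18.6 at 7 h, and KCl at 21.5/17.8 at 2 h and 22.4/24.9 at 7 h. Every library of the H2O2 7 h and both KCl groups lay below both control libraries. The log2 fold change was -0.92 ± 0.11 at 7 h of H2O2, -0.92 ± 0.11 at 2 h of KCl and -0.65 ± 0.11 at 7 h of KCl. Xbp1 was called higher at 2 h of H2O2, by 0.31 ± 0.10 (adjusted p = 0.0179). That rise did not pass without the second control library (adjusted p = 0.208) or without the first H2O2 2 h library (adjusted p = 0.239). H2O2 and KCl at 2 h differed by 1.23 ± 0.11 (adjusted p = 5.27e-07).

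**Figure D3:**
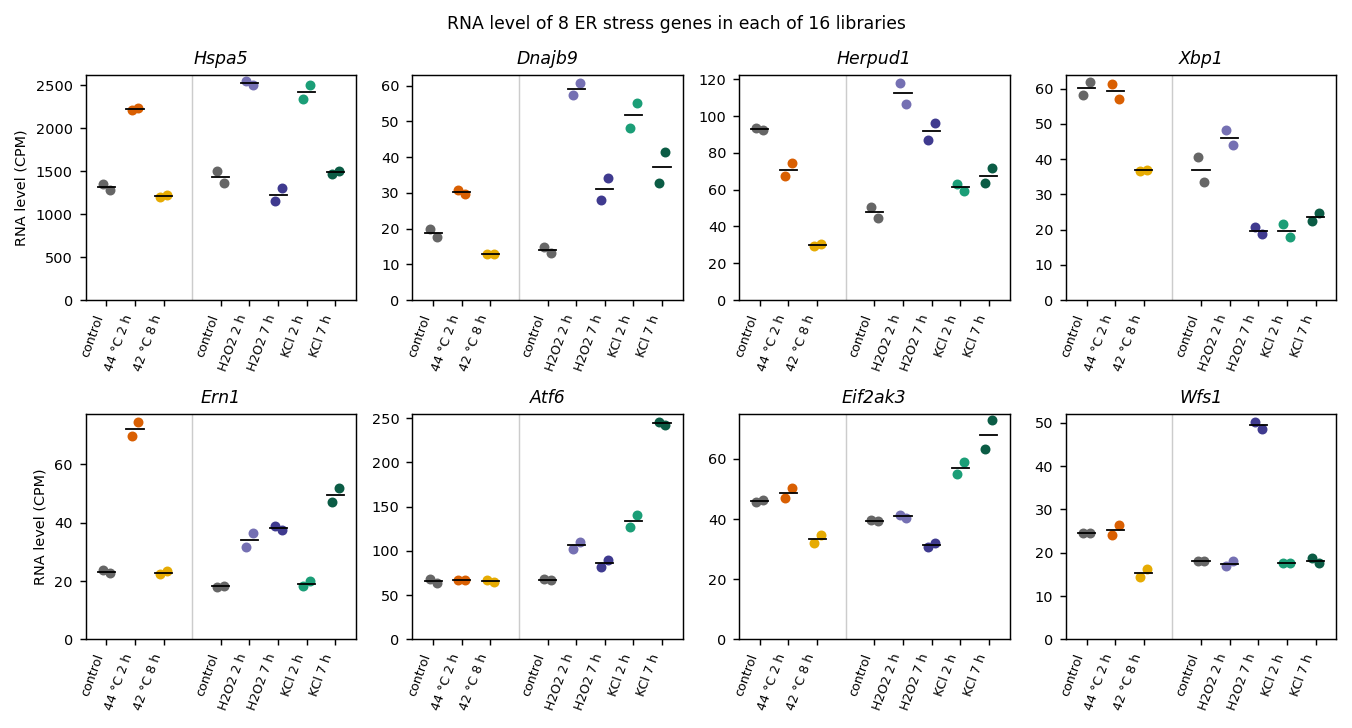
RNA level in CPM (vertical axis, from 0) of 8 of the genes in each of the 16 RNA libraries, with points for libraries, horizontal bars for the mean of the 2 libraries of a group and a grey line between the experiments. Atf6 stands highest at 7 h of KCl (246/242 CPM), and Wfs1 at 7 h of H2O2 (50.3/48.6 CPM).

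The HSP70 system of the ER lumen holds Hspa5, its relatives and exchange factors Hyou1, Hspa13 and Sil1, the J proteins Dnajb9, Dnajb11 and Dnajc3, and Sdf2l1, a partner of the J proteins. At 44 °C 6 of the 8 were higher and 1 lower, beside 35.4% and 35.7% of all genes. At 2 h of H2O2 6 were higher and 0 lower, beside 27.3% and 26.5%. At 2 h of KCl 7 were higher and 0 lower, beside 27.2% and 27%. In contrast, 1 was higher and 6 were lower at 7 h of H2O2, beside 39.4% and 31.1%. Hspa5, on chromosome 2 from 34772090 to 34776529, stood at 1356/1286 CPM in the heat control, 2214/2236 at 44 °C and 1195/1225 at 42 °C. The 44 °C libraries lay clear of the others. The log2 fold change was 0.75 ± 0.04 at 44 °C (edgeR adjusted p = 1.45e-09) and -0.13 ± 0.04 at 42 °C (adjusted p = 0.0155), and the fall at 42 °C did not pass without the first control library (adjusted p = 0.168) or without the first 42 °C library (adjusted p = 0.0922). In the H2O2/KCl experiment Hspa5 stood at 1498/1367 CPM in the control. It was at 2553/2502 CPM after 2 h and 1148/1302 after 7 h of H2O2, and at 2339/2507 after 2 h and 1470.3/1499 after 7 h of KCl. Both agents gave a high level at 2 h and a level near or below that of the control at 7 h. The log2 fold changes at 2 h were 0.82 ± 0.07 under H2O2 and 0.76 ± 0.07 under KCl, and the difference between the agents at 2 h was 0.06 ± 0.07 with a 95% interval of -0.08 to 0.20. At 7 h they were -0.23 ± 0.07, which did not pass without the first control library (adjusted p = 0.109), and 0.05 ± 0.07 (adjusted p = 0.536).

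Dnajb9, on chromosome 12 from 44205897 to 44210068, gave the largest rise of the 31 genes after 2 h of either agent. Its RNA stood at 15/13.2 CPM in the control, 57.4/60.7 at 2 h and 27.9/34.2 at 7 h of H2O2, then 48.1/55.2 at 2 h and 32.7/41.5 at 7 h of KCl. No stressed library overlapped the control. The level was 4.19 times the control at 2 h of H2O2 (log2 fold change 2.07 ± 0.12, edgeR adjusted p = 6.43e-09) and 3.67 times at 2 h of KCl. At 7 h the log2 fold change was 1.13 ± 0.12 under H2O2 and 1.39 ± 0.12 under KCl. Under heat the same gene stood at 19.8/17.6 CPM in the control, 30.7/29.8 at 44 °C and 12.8/12.8 at 42 °C. It rose at 44 °C by 0.69 ± 0.07 and fell at 42 °C, with -0.55 ± 0.08.

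Sdf2l1 stood at 29.8/29.2 CPM in the heat control, 56.7/54.8 at 44 °C and 30.5/31.2 at 42 °C, a rise at 44 °C of 0.92 ± 0.05 (edgeR adjusted p = 2.49e-09). In the H2O2/KCl experiment its RNA stood at 25.7/26.2 CPM in the control, 27/25.4 and 17.3/18.4 after 2 h then 7 h of H2O2, and 33.4/29.3 and 20.8/18.6 after 2 h then 7 h of KCl. Its 2 h H2O2 libraries overlapped the control, and both 7 h groups lay below it. Log2 fold changes were -0.54 ± 0.09 under 7 h of H2O2 and -0.39 ± 0.09 under 7 h of KCl. Its rise at 2 h of KCl, 0.27 ± 0.08, did not pass without the first control library (adjusted p = 0.0688) or the first KCl 2 h library (adjusted p = 0.132). Hspa13, an HSP70 relative of the ER, stood at 129/122 CPM in that control, 72/77.5 after 7 h of H2O2 and 194/203 after 7 h of KCl. Its log2 fold change was -0.75 ± 0.08 under H2O2 and 0.66 ± 0.08 under KCl, and the difference between the agents was -1.41 ± 0.08 (adjusted p = 8.09e-10). Sil1, an exchange factor for BiP, was among the largest falls at 7 h of KCl, from 27.7/23.2 CPM in the control to 14.3/18 (-0.67 ± 0.12), and it also fell at 44 °C, from 29/26.1 to 20.8/19.1 (-0.47 ± 0.07). Hyou1 (GRP170, a large HSP70 relative) rose at 44 °C from 334/332 to 549/528 CPM (0.69 ± 0.04). At 42 °C Hyou1 stood at 363/363 CPM and Dnajb11 at 180.0/179.8, against 162/159 in the control. Both were called higher there (0.12 ± 0.04 and 0.16 ± 0.04), but on log2(TPM + 1) their values were -0.06 and -0.02 and did not pass. The call of Hyou1 at 42 °C was also lost without the second control library or the first 42 °C library. At 2 h of H2O2 the rises of Hyou1, Hspa13, Dnajb11 and Dnajc3 each did not pass without the first H2O2 2 h library (adjusted p = 0.124, 0.115, 0.514 and 0.118).

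The other folding factors of the lumen are Hsp90b1, Creld2 and Manf. All 3 were higher at 44 °C and at 2 h of KCl, beside 35.4% and 27.2% of all genes. All 3 were lower at 7 h of H2O2, beside 31.1% of all genes. Hsp90b1 stood at 1646/1562 CPM in the heat control, 2268/2241 at 44 °C and 1770.1/1779 at 42 °C, with log2 fold changes of 0.49 ± 0.04 and 0.15 ± 0.04. The second of these was -0.04 on log2(TPM + 1) and did not pass there, nor without the second control library (adjusted p = 0.0676). Hsp90b1 stood at 1630.5/1470.1 CPM in the H2O2/KCl control, 1915/1843 and 986/1095 after 2 h then 7 h of H2O2, and 2191/2476 and 1727/1719.7 after 2 h then 7 h of KCl. Of that experiment, the 7 h H2O2 libraries lay lowest and the 2 h KCl libraries highest. The log2 fold change was -0.58 ± 0.08 under 7 h of H2O2 and 0.59 ± 0.08 under 2 h of KCl. The value at 2 h of H2O2 was 0.28 ± 0.08, which did not pass without the first H2O2 2 h library (adjusted p = 0.109) or without the second control library (adjusted p = 0.0843).

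Manf stood at 138/139 CPM in the control and at 141/135 at 2 h of H2O2. It then stood at 77.9/83.5 CPM at 7 h of H2O2 and, under KCl, at 162/151 at 2 h and 86.8/80.8 at 7 h. Both 7 h groups lay far below the control, with -0.78 ± 0.06 for H2O2 and -0.72 ± 0.06 for KCl (edgeR adjusted p = 6.56e-08 and 2.05e-07). Creld2 stood at 79.1/80.9 CPM in the control, 91/79.6 and 52.2/54.6 after 2 h then 7 h of H2O2, and 97.9/90.1 and 67.9/61.4 after 2 h then 7 h of KCl. It too fell at 7 h of both agents, by 0.58 and 0.30 on the log2 scale. Under heat Creld2 stood at 76.5/79.6 CPM in the control, 117/116 at 44 °C and 76.6/79.6 at 42 °C, and Manf at 117/128, 165/163 and 129/128. Both genes rose at 44 °C (0.58 ± 0.04 and 0.42 ± 0.05), while at 42 °C neither passed the test. The rises of both at 2 h of KCl, 0.23 ± 0.07 for Creld2 and 0.18 ± 0.06 for Manf, did not pass without either control library or without the first KCl 2 h library (adjusted p up to 0.100 and 0.132).

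The lectin chaperones Calr and Canx (calnexin) bind glycoproteins that carry a trimmed sugar. Calr stood at 1642/1568 CPM in the heat control, 2385/2427 at 44 °C and 1603/1586 at 42 °C, a rise at 44 °C of 0.58 ± 0.04 (edgeR adjusted p = 1.48e-08). Canx rose there too (0.58 ± 0.04). In the H2O2/KCl experiment Calr stood at 1729.6/1591 CPM in the control, 2050.4/1955 and 1277/1345 after 2 h then 7 h of H2O2, and 2137/2167 and 1817/1903 after 2 h then 7 h of KCl. The pair parted at 7 h of H2O2, where Calr was lower (-0.34 ± 0.06) and Canx higher (0.37 ± 0.08). The rise of Calr at 2 h of H2O2, 0.27 ± 0.06, did not pass without the first H2O2 2 h library (adjusted p = 0.0879). That at 7 h of KCl, 0.16 ± 0.06, did not pass without the second control library (adjusted p = 0.234) or the second KCl 7 h library (adjusted p = 0.160).

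The disulfide enzymes P4hb, Pdia3, Pdia4, Pdia6 and Ero1l were all higher at 44 °C, under 2 h of H2O2 and under 2 h of KCl. Over all genes 35.4%, 27.3% and 27.2% were higher there. Ero1l, the oxidase that recharges the isomerases, changed most of the 5 in every stress except 2 h of KCl, where P4hb did. It stood at 88.7/82 CPM in the H2O2/KCl control, 145/159 at 2 h and 204/225 at 7 h of H2O2, and 105/119.6 and 115/119 after 2 h then 7 h of KCl. Its level rose with the time in H2O2, and the log2 fold change was 0.83 ± 0.08 at 2 h and 1.33 ± 0.08 at 7 h, with a difference between the times of 0.50 ± 0.08 (edgeR adjusted p = 3.96e-05). Pdia3 was also higher at 7 h of H2O2 (0.34 ± 0.07), while P4hb (-0.25 ± 0.07), Pdia4 (-0.47 ± 0.06) and Pdia6 (-0.41 ± 0.06) were lower. The fall of P4hb did not pass without the first control library (adjusted p = 0.0531). At 2 h of H2O2 the rises of P4hb, Pdia4 and Pdia6 did not pass without the first H2O2 2 h library (adjusted p = 0.407, 0.450 and 0.158) or without the second control library, and at 44 °C that of P4hb did not pass without the second heat control (adjusted p = 0.0840). Under heat Ero1l rose at 44 °C (0.59 ± 0.05) and fell at 42 °C (-0.35 ± 0.05). In the 2 libraries at 2 h of KCl, and in no other RNA library, the deposited calls mark transcription from the upstream gene Arhgdia as reaching into P4hb. The rise of P4hb there was 0.51 ± 0.07, and the part of such reads in it was not tested.

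ER-associated degradation draws misfolded proteins back to the cytosol. Herpud1, on chromosome 8 from 94386429 to 94395371, encodes a membrane adaptor of the ubiquitin ligase complex of Syvn1 and Sel1l. It was lower in both heat groups and higher in all 4 groups of the other experiment. It stood at 93.7/92.3 CPM in the heat control, 67.4/74.3 at 44 °C and 29.2/30.6 at 42 °C. The libraries of the 3 groups did not overlap, and the level at 42 °C was 0.321 times that of the control (log2 fold change -1.64 ± 0.06, edgeR adjusted p = 1.72e-11), the largest fall of the 31 genes in any stress. The value at 44 °C was -0.39 ± 0.05. In the H2O2/KCl experiment Herpud1 stood at 50.8/44.8 CPM in the control, 118/107 and 87.2/96.5 after 2 h then 7 h of H2O2, and 63/59.5 and 63.8/71.6 after 2 h then 7 h of KCl. All 4 stressed groups lay above the control, by 1.23 ± 0.08 and 0.94 ± 0.08 under H2O2 and 0.36 ± 0.08 and 0.50 ± 0.08 under KCl. The values under H2O2 were above those under KCl by 0.88 ± 0.08 at 2 h and 0.44 ± 0.08 at 7 h.

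Syvn1 (HRD1, the ubiquitin ligase) stood at 80.2/83.1 CPM in the heat control, 114/121 at 44 °C and 45.2/47.2 at 42 °C, and its log2 fold changes were 0.53 ± 0.05 and -0.82 ± 0.05. In the other experiment it stood at 78.4/79.6 CPM in the control, 67.5/67 and 44.9/45.7 after 2 h then 7 h of H2O2, while KCl at 2 h gave 62.5/59.3. It was lower in those 3 groups, with -0.23 ± 0.06, -0.80 ± 0.06 and -0.37 ± 0.06. Edem1, a lectin that marks glycoproteins for degradation, was at 109/103 CPM in the control and 183/204 at 7 h of H2O2 (0.86 ± 0.07), so that in this group Edem1 and Syvn1 moved apart. At 42 °C 5 of the 6 tested genes of this group were lower and 0 higher, beside 31.9% and 31.7% of all genes. Derl2, with -0.05 ± 0.06, did not pass there. Derl2 fell at 2 h of KCl, from 50.6/46.4 to 40.5/44.7 CPM (-0.19 ± 0.08), a call lost without the first control library (adjusted p = 0.295) or the first KCl 2 h library (adjusted p = 0.262).

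The remaining 3 genes act in translocation or in the membrane. Wfs1, on chromosome 5 from 36966104 to 36988982, stood at 18.2/18.1 CPM in the H2O2/KCl control, 17/18.1 at 2 h and 50.3/48.6 at 7 h of H2O2, and 17.7/17.6 and 18.8/17.7 after 2 h then 7 h of KCl. One group, 7 h of H2O2, stood apart from all the others, and the log2 fold change there was 1.45 ± 0.07 (edgeR adjusted p = 1.80e-10), the largest rise of the 31 genes in that stress. In the heat experiment Wfs1 stood at 24.6/24.7 CPM in the control, 24.2/26.5 at 44 °C and 14.5/16.2 at 42 °C, where it fell by 0.69 on the log2 scale. Sec61b, a subunit of the translocon, was among the largest falls at 44 °C, from 66.6/71.4 to 43.5/43.7 CPM (-0.66 ± 0.05), and at 2 h of H2O2, from 57.1/60.2 to 47.2/41.7 (-0.40 ± 0.08). Ssr1 fell at 44 °C from 410.0/392 to 325/305 CPM (-0.35 ± 0.04). These 2 genes of the translocation machinery thus stood lower at 44 °C, where 20 of the 31 genes were higher.

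The 10 tested genes with an ER stress element of either form, shown above, were set beside the 15 that had a window and no such element and the 6 without a window. At 44 °C 9 of the 10 were higher and 1, Herpud1, was lower, with a median log2 fold change of 0.55. Of the 15, 8 were higher and 2 lower, with a median of 0.13, and of the 6, 3 were higher and 1 lower. Over all genes 35.4% were higher and 35.7% lower. After 7 h of H2O2 2 of the 10 were higher and 8 lower, with a median of -0.48. Of the 15, 6 were higher and 9 lower, with a median of -0.26, beside 39.4% and 31.1% of all genes. At 2 h of KCl 9 of the 10 were higher and 1 lower (median 0.41). Of the 15, 10 were higher and 2 lower (median 0.28), beside 27.2% and 27% of all genes. The heat group at 42 °C had medians of -0.0045 (with an element) and -0.22 (without), the H2O2 group at 2 h 0.25 and 0.20, and the KCl group at 7 h 0.16 and 0.19. In footprints at 7 h of H2O2, 1 of the 10 was higher and 0 lower (median -0.04). Of the 15, 6 were higher and 1 lower (median 0.54), beside 17.2% and 10.6% of all genes. These counts are a description, and no test was made between the groups of genes.

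The time in H2O2 and the choice of agent were compared directly. From 2 h to 7 h of H2O2, 23 of the 31 genes fell and 3 rose, beside 36.1% and 37.3% of all genes. The 3 that rose were Wfs1 (1.5 ± 0.07), Edem1 (0.66 ± 0.07) and Ero1l. From 2 h to 7 h of KCl, 13 fell and 5 rose, beside 33.7% and 35.1% of all genes. Ern1 rose most there (1.37 ± 0.09), from libraries at 18.4/19.9 CPM to 47/51.9, and Manf fell most (-0.90 ± 0.06). Between the agents at 2 h, 12 genes were lower and 4 higher under H2O2 than under KCl, beside 24.2% and 27% of all genes, and on log2(TPM + 1) 6 were lower and 7 higher. At 7 h, 18 were lower and 5 higher under H2O2, beside 37.4% and 41%. The 5 included Wfs1 (1.44 ± 0.07) and Ero1l (0.88 ± 0.08), and the largest of the 18 was Atf6. The H2O2 and KCl comparisons with the control share the same control libraries.

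Footprints of these genes were measured with wider error. The median standard error of the log2 fold change over the 31 genes at 7 h of H2O2 was 0.24 in footprints and 0.07 in RNA. The 2 footprint libraries at 2 h of H2O2 stood apart from each other: 25 of the 31 genes were higher in the second than in the first, with a median log2 ratio of 0.65, and the first held 1460751 counts and the second 5168537. In the footprint control 26 of 31 were higher in the first library, with a median log2 ratio of second to first of -0.28. After 2 h of H2O2 2 genes were higher and 0 lower, beside 1.14% and 0.768% of the 10545 genes tested. 5 of the 31 had an unadjusted p under 0.05, DESeq2 called 4, and without either control library or without the second H2O2 2 h library 0 were called. After 7 h of H2O2 7 were higher and 1 lower, beside 17.2% and 10.6%. That count was 4 without the second control library, 4 without the first H2O2 7 h library and 3 without the second. After 2 h of KCl 0 were higher and 1 lower, beside 1.79% and 5.06%, with 6 at an unadjusted p under 0.05 and 1 called by DESeq2. The 1 call was lost without the first control library or without either KCl 2 h library. At 7 h of KCl 4 were higher and 1 lower, beside 10.5% and 9.83%, and the count was 1 without the second control library, 2 without the first KCl 7 h library and 3 without the second. The shares higher at 7 h of either agent were near the background.

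Wfs1 footprints stood at 21.8/21.2 CPM in the control, 38/33.8 at 2 h and 73.5/55.9 at 7 h of H2O2. The 7 h libraries lay above all others, and the log2 fold change was 1.59 ± 0.23 (edgeR adjusted p = 1.88e-04), beside 1.45 ± 0.07 in RNA. Edem1 footprints stood at 47.4/39.3 CPM in the control and 106/109 at 7 h of H2O2, a rise of 1.31 ± 0.21 (adjusted p = 4.95e-04). Both rises passed in each of the 11 alternatives run without a fold threshold. Herpud1 footprints stood at 56/56.3 CPM in the control, 117/198 at 2 h and 108/122 at 7 h of H2O2, with 1.51 ± 0.25 and 1.03 ± 0.25. Dnajb9 footprints stood at 15.4/8.79 CPM in the control, 20.7/49.7 and 31/35.4 after 2 h then 7 h of H2O2 and 31.5/17.4 and 34.6/36 after 2 h then 7 h of KCl. All 8 stressed libraries lay above both controls, and the log2 fold change was 1.45 ± 0.39 under 7 h of H2O2 and 1.53 ± 0.39 under 7 h of KCl. Its value at 2 h of H2O2, 1.61 ± 0.39, did not pass (edgeR adjusted p = 0.0551). Ern1 footprints rose at 7 h of H2O2 from 18.1/16.2 to 40.1/36.6 CPM (1.16 ± 0.28), and those of Ero1l from 73.6/58 to 116/121 (0.85 ± 0.24). At 7 h of H2O2 the calls of Dnajb9 and Ero1l were lost without the second control library or either H2O2 7 h library, that of Ern1 without the second control or the first H2O2 7 h library, and that of Herpud1 without the first control or the second H2O2 7 h library (adjusted p up to 0.113, 0.131, 0.0627 and 0.0761). The call of Herpud1 at 2 h was lost without either control or the second H2O2 2 h library (up to 0.0702), and that of Dnajb9 at 7 h of KCl without the second control or either KCl 7 h library (up to 0.113).

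Xbp1 footprints fell with its RNA at 7 h of H2O2 and at both times of KCl. At 2 h of H2O2 its RNA was called higher (0.31), a call lost without the first H2O2 2 h or the second control RNA library. Its footprints stood lower there and did not pass. Xbp1 footprints stood at 34.5/33 CPM in the control, 24.7/24.6 and 18.8/14.4 after 2 h then 7 h of H2O2, and 12.7/13.6 and 13.9/22.7 after 2 h then 7 h of KCl. Every stressed library lay below both controls. The log2 fold change was -1.02 ± 0.26 at 7 h of H2O2, -1.36 ± 0.27 at 2 h of KCl and -0.86 ± 0.26 at 7 h of KCl (edgeR adjusted p = 0.0106, 0.0101 and 0.0337), and -0.45 ± 0.26 at 2 h of H2O2 did not pass. Atf6 footprints rose at 7 h of KCl from 74.6/58 to 160.1/155 CPM (1.24 ± 0.24), and those of Hspa13 from 175/135 to 275/229 (0.70 ± 0.21). The rise of Atf6 passed in all 11 alternatives run without a fold threshold, while that of Hspa13 was lost without the second control or either KCl 7 h library (adjusted p up to 0.217). The fall of Xbp1 was lost at 7 h of H2O2 without the second library of that group (edgeR adjusted p = 0.0962). At 2 h of KCl it was lost without the first control or either KCl 2 h library (up to 0.0851). At 7 h of KCl it was lost without either control or the first KCl 7 h library (up to 0.224), and also by DESeq2. On log2(TPM + 1) it was lost at 7 h of both agents. Of the 8 genes called in footprints at 7 h of H2O2, 7 were called in the same direction in RNA and 1 in the opposite direction. All 5 called at 7 h of KCl were called in the same direction in RNA. Hspa5 footprints stood at 3623/2753 CPM in the control, 4485/7107 and 4116/4924 after 2 h then 7 h of H2O2, and 4833/3962 and 4342/3801 after 2 h then 7 h of KCl. All stressed libraries lay above both controls, but no log2 fold change of Hspa5 footprints passed the test, the largest being 0.86 ± 0.24 at 2 h of H2O2 (adjusted p = 0.0844).

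**Figure D4:**
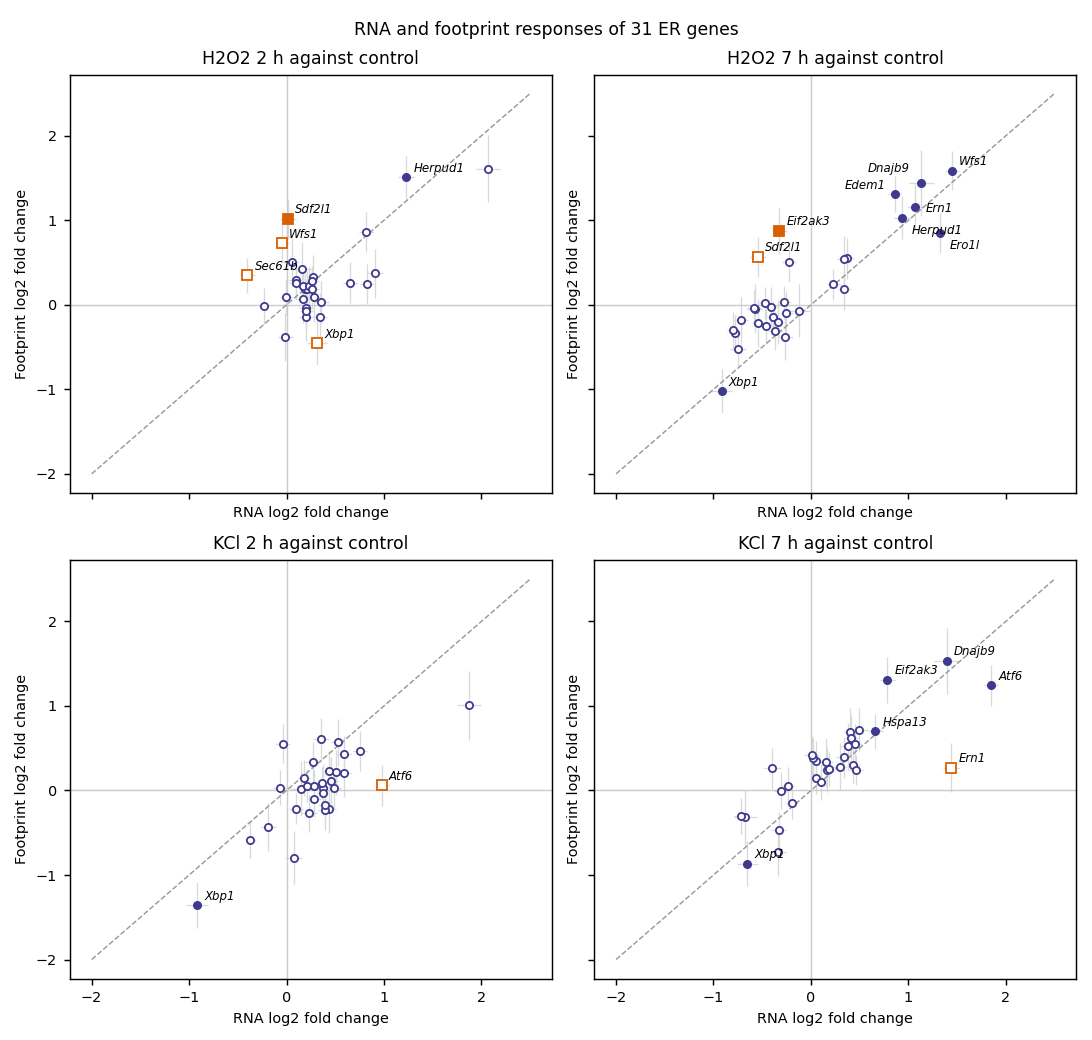
Log2 fold change of footprints (vertical axis) against that of RNA (horizontal axis) for the 31 tested genes in 4 stresses, with bars of 1 standard error, filled symbols for calls in footprints, orange squares for calls in footprints per RNA (edgeR adjusted p under 0.05 each) and a dashed line for equal changes. Eif2ak3 at 7 h of H2O2 lies left of 0 in RNA (-0.33) and above 0 in footprints (0.88).

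Translational efficiency, the footprints of a gene relative to its RNA, was called changed for few of these genes. After 2 h of H2O2 3 were higher and 1 lower, beside 3.98% and 7.46% of the 10480 genes tested. At 7 h of H2O2 2 were higher and 0 lower, beside 4.69% and 4.57%. At 2 h of KCl 0 were higher and 1 lower, beside 3.58% and 9.18%, and at 7 h of KCl 0 were higher and 1 lower, beside 1.69% and 3.88%. In that order of stresses, 5, 8, 7 and 5 of the 31 genes had an unadjusted p under 0.05, and DESeq2 called 4, 4, 3 and 2. Counts of 1 to 3 genes among 31 were not read against these shares. Single libraries moved the counts. Without the second footprint library at 2 h of H2O2 the count there was 12, of which 9 were lower, and without any other library of that comparison it was 1 or 2. The call at 7 h of H2O2 of 1 of the 2 genes was lost without the first footprint library of that group.

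Sdf2l1 gave a higher ratio at both times of H2O2. Its footprints stood at 24.9/31.3 CPM in the control, 57.4/56.6 at 2 h and 44.4/38.9 at 7 h of H2O2, while its RNA stood at 25.7/26.2, 27/25.4 and 17.3/18.4. Footprints lay above the control without overlap where RNA was level or lower. The footprint rise at 2 h (1.02) was called, and the call was kept in 4 of the 11 alternatives run without a fold threshold. It was lost without either control or either H2O2 2 h footprint library. At 7 h the footprint rise was not called. The change in efficiency was 0.97 ± 0.21 at 2 h and 1.12 ± 0.21 at 7 h (edgeR adjusted p = 0.00684 and 0.00349), and both passed in each of the 16 alternatives run without a fold threshold. At 2 h of KCl the value was 0.05 ± 0.22, and the difference between the agents at 2 h was 0.92 ± 0.21 (adjusted p = 0.0179). It passed in 8 of the 16 alternatives, with adjusted p from 0.00311 to 0.0983, and was lost without the first or the second H2O2 2 h RNA library, the first KCl 2 h RNA library, the second H2O2 2 h footprint library or the first KCl 2 h footprint library. This was the 1 gene higher under H2O2 at 2 h, with 0 lower, beside 2.97% and 1.94% of all genes, and without the first H2O2 2 h footprint library the count was 3.

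Eif2ak3 footprints stood at 20.8/15.1 CPM in the control, 37/29.1 under 7 h of H2O2 and 48.1/41.4 under 7 h of KCl. At 7 h of H2O2 footprints lay above the control (0.88 ± 0.27) while RNA lay below it (-0.33 ± 0.08). The footprint rise did not pass without the second control library or either H2O2 7 h library, with adjusted p up to 0.235. The change in efficiency was 1.2 ± 0.25 (edgeR adjusted p = 0.00707), and it passed in 15 of 16 alternatives, with 0.0556 without the first H2O2 7 h footprint library. At 7 h of KCl footprints (1.31 ± 0.27, lost without the second control library at an adjusted p of 0.0551) and RNA (0.79 ± 0.07) both lay above the control, and the efficiency, 0.54 ± 0.25, did not pass (adjusted p = 0.221).

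Ern1 showed the reverse at 7 h of KCl. Its footprints stood at 18.1/16.2 CPM in the control, 11.4/8.34 at 2 h and 24.4/17.3 at 7 h of KCl, so that the 7 h libraries overlapped the control while RNA had risen. The change in efficiency was -1.16 ± 0.25 (edgeR adjusted p = 0.0126), which did not pass without the first footprint control (adjusted p = 0.0577) or the second KCl 7 h footprint library (adjusted p = 0.0950). Between the agents at 7 h the efficiency of Ern1 was higher under H2O2 by 1.25 ± 0.23 (adjusted p = 0.00258), in each of the 16 alternatives. It was the 1 gene higher in that comparison, with 0 lower, beside 7.29% and 4.76% of all genes, and without the first KCl 7 h footprint library the count was 2. Atf6 had a lower efficiency at 2 h of KCl, -0.93 ± 0.25 (adjusted p = 0.0216), where its RNA was 1.97 times the control and its footprints stood at 81.5/56.7 CPM beside 74.6/58 in the control. It passed in 9 of 16 alternatives, with adjusted p from 0.0055 to 0.112. It was lost without either RNA control library, the second KCl 2 h RNA library, the first footprint control or the second KCl 2 h footprint library. The other calls at 2 h of H2O2 were Wfs1 (0.72 ± 0.20), Sec61b (0.71 ± 0.20) and Xbp1 (-0.80 ± 0.24), which passed in 7, 9 and 6 of 16 alternatives.

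Other genes of the pathway were counted from 5 lists. The list named for the output of the PERK arm held 12 genes that the factor ATF4 and its partners are known to raise. PERK activity was not measured, and whether these genes changed through PERK was not tested. Of the 5 lists, this list had the largest median change under H2O2 at both times, at 42 °C and after 7 h of KCl. It did not have the largest at 44 °C or after 2 h of KCl. At 42 °C 2 of the 12 were higher and 10 lower in RNA (all genes 31.7% and 31.9%), with a median log2 fold change of -1.53. The largest change there was a rise, of Atf3 (4.21 ± 0.06), followed by falls of Trib3 (-3.20 ± 0.08) and Vldlr (-2.44 ± 0.10). At 44 °C 2 were higher and 6 lower (35.4% and 35.7%), with a median of -0.15. Under H2O2 11 of 12 were higher at 2 h (median 1.73) and 12 of 12 at 7 h (median 2.61), and footprints of 10 and 11 of them were higher. Over all genes 27.3% and 39.4% were higher in RNA, and 1.14% and 17.2% in footprints. Atf3 rose most of the 12 at 2 h of H2O2, by 5.06 ± 0.09 in RNA. Sesn2 rose by 3.76 ± 0.09 at 2 h and 3.74 ± 0.09 at 7 h, and Trib3 by 3.61 ± 0.10 at 7 h. Under KCl 5 were higher and 5 lower at 2 h (all genes 27.2% and 27%), and 7 higher and 1 lower at 7 h (37.2% and 31.6%). The lists of translocation and glycosylation genes and of other folding enzymes, 21 genes each, stood higher at 2 h of H2O2 (13 and 9 higher, 0 lower in both) and lower at 7 h (13 lower and 0 higher in the first, 13 lower and 2 higher in the second), where 26.5% and 31.1% of all genes were lower at 2 h and 7 h. At 44 °C the same lists counted 10 and 11 lower, beside 2 and 5 higher, where 20 of the 31 genes described above were higher. Of 18 tested genes of glycan trimming and degradation 7 were higher and 5 lower at 44 °C, near the shares of all genes. Of 6 genes that process ATF6 or are related to it, 3 were lower and 0 higher at 44 °C, and 4 were lower and 1 higher at 7 h of H2O2.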

How the data were processed

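The authors sequenced polyA-selected RNA (16 libraries) and ribosome footprints (10 libraries) and deposited tables by gene. The submitters' processing notes name STAR, RSEM, Bowtie and the build mm10, with roles and versions not given in the sources used here. The authors deposited expected counts, estimates that need not be whole. The deposited values were already whole numbers and were tested as they stood. The authors also deposited TPM, used here for levels between genes and for one alternative. 12 columns that no sample's labels name were not used.

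Counts were tested over all genes with edgeR 4.0.16 (R 4.3.3, limma 3.58.1) by TMM normalization, the filterByExpr filter and the quasi-likelihood test, with 1 fit per experiment for RNA and 1 for footprints. Translational efficiency was the interaction in 1 model over 20 libraries. The fits were tested on simulated data. Alternatives were DESeq2 1.42.0, its size factors, no filter, log2(TPM + 1), a fold threshold, a replicate block, only the groups compared, summed alias symbols, voom weights and each library left out.

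The members and lists were chosen with earlier results of these data known. Values in every library were printed for 13 chosen genes and for up to 4 of the largest changes each way in each comparison with a control, among called genes whose groups did not overlap and whose average log2 CPM was at least 3. Non-members were named only among the largest changes of their list. Depth ran from 24441877 to 45244430 counts for RNA and from 1460751 to 5168537 for footprints, and footprint errors were wider.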

Additional observations from a re-analysis of the deposited data

Results flagged for a closer look

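In each of the following cases a gene's RNA was called higher in 1 of 2 stresses and lower in the other against the control, and the edgeR test of the difference between the 2 stresses passed as well. Differences are on the log2 scale. How many of all genes crossed in the same way was not counted. The numbers of genes below are therefore not read as particular to this list.

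Between the heat groups (42 °C for 8 h minus 44 °C for 2 h), the difference was -0.88 for Hspa5, -1.24 for Dnajb9, -0.72 for Dnajc3 and -0.35 for P4hb. It was -1.35 for Syvn1, -0.52 for Derl1 and -0.94 for Ero1l. These 7 genes were called higher at 44 °C and lower at 42 °C. The fall of Dnajc3 did not pass without the first 42 °C library (adjusted p = 0.107, edgeR) or the first heat control (0.116), nor did that of Hspa5 without either of these, or the rise of P4hb without the second heat control.

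Between the times of H2O2 (7 h minus 2 h), the difference was -1.04 for Hspa5, -0.85 for Hsp90b1, -0.58 for Hyou1, -0.71 for Dnajb11, -0.92 for Dnajc3 and -0.95 for Hspa13, chaperones and J proteins. It was -0.61 for Calr, -0.64 for Pdia4, -0.64 for Pdia6, -0.45 for P4hb, -1.23 for Xbp1 and -0.63 for Ssr1. All 12 were higher than the control at 2 h and lower at 7 h, and in 11 of them, all but Hspa5, the rise at 2 h did not pass without at least 1 of the libraries. For Hspa5 the fall at 7 h did not pass without the first control library.

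Between the times of KCl (7 h minus 2 h), the difference was -0.67 for Sdf2l1, -0.54 for Creld2, -0.90 for Manf, -0.56 for Pdia4 and -0.63 for Ssr1. In all 5 a call against the control did not pass without 1 library. Those were the rises at 2 h of Sdf2l1, Creld2 and Manf without the first KCl 2 h library (edgeR adjusted p = 0.132, 0.100 and 0.132) or the first control library (0.0688, 0.0878 and 0.0942), for Creld2 and Manf also without the second control library (0.0518 and 0.0787), and the falls at 7 h of Pdia4 and Ssr1 without the first control library (0.111 and 0.103), that of Pdia4 also without the first KCl 7 h library (0.0566) and that of Ssr1 without the second (0.0665). Between the agents (H2O2 minus KCl), it was 1.23 for Xbp1 at 2 h. At 7 h it was -0.95 for Dnajb11, -1.01 for Dnajc3, -0.50 for Calr, -0.67 for P4hb, -1.11 for Eif2ak3, -0.46 for Sel1l and -1.41 for Hspa13. Some of these calls did not pass without 1 library. The rise of Xbp1 at 2 h of H2O2 was lost without the first H2O2 2 h library (edgeR adjusted p = 0.239) or the second control (0.208), and the fall of P4hb under 7 h of H2O2 without the first control (0.0531). The rise of Calr under 7 h of KCl was lost without the second control (0.234) or the second KCl 7 h library (0.160), and that of Sel1l without the second control (0.135) or either KCl 7 h library. These comparisons share their control libraries.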

How the results depend on the processing

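Of 282 counts of called members recomputed under an alternative, 207 stayed within 1.5 times the reported count and 75 moved beyond it. Of 3494 values of single genes, 3013 kept their direction and side of the threshold, 476 lost the call and 5 reversed. With log2(TPM + 1) the reversed values were -0.0415 for Hsp90b1, -0.0632 for Hyou1 and -0.0244 for Dnajb11 at 42 °C against the control, and -0.0521 for Sil1 and -0.0905 for Ssr1 at 42 °C against 44 °C. The cause was not tested, but this scaling moved the median of all genes to -0.16 and -0.20 in those comparisons. With a log2 fold change of at least 1 required as well, RNA counts were 1 at 44 °C, 1 at 42 °C and 4 between them, 2 and 4 after 2 h then 7 h of H2O2, 1 and 3 after 2 h then 7 h of KCl, 3 and 1 between the times of H2O2 and of KCl, and 1 and 5 between the agents at 2 h and 7 h. Footprints at 7 h of KCl then gave 3, and efficiency gave 0 at 2 h of H2O2, 0 at 2 h of KCl and 0 between the agents at 2 h.

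For footprints at 2 h of H2O2 the count was 4 by DESeq2, 4 without a filter, 0 with log2(TPM + 1) and 0 with only the groups compared, and for those at 7 h of KCl it was 2 with log2(TPM + 1). For efficiency, DESeq2 gave 4 at 7 h of H2O2, 3 and 2 after 2 h then 7 h of KCl, and 3 and 3 between the agents. With log2(TPM + 1) efficiency gave 2 at 2 h of H2O2, 0 and 0 after 2 h then 7 h of KCl, and 0 and 2 between the agents. With only the groups compared it gave 2 and 4 after 2 h then 7 h of H2O2, 0 at 2 h of KCl, and 0 and 5 between the agents. With voom weights it gave 1 at 2 h of H2O2, 0 at 7 h of KCl and 0 between the agents at 2 h. The cause of these moves was not tested.

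Leaving out 1 library gave 11 to 20 for RNA at 2 h of H2O2. For footprints it gave 0 to 3 and 3 to 7 after 2 h then 7 h of H2O2, and 0 to 1 and 1 to 4 after 2 h then 7 h of KCl. For efficiency it gave 1 to 12 and 1 to 3 after 2 h then 7 h of H2O2, 0 to 1 and 0 to 1 after 2 h then 7 h of KCl, and 0 to 3 and 1 to 2 between the agents. Correlations of the deviations of same-numbered libraries ran from -0.02 to 0.12 in the heat RNA, -0.05 to 0.05 in the other RNA and -0.38 to 0.42 in footprints (median 0.20). Not every pair was above 0.1, so the numbers were not taken to pair the libraries. With a replicate block the count for footprints at 2 h of H2O2 was 1, with the call of Sdf2l1 lost, and the other 20 counts stayed within 1.5 times.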

Other observations

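The authors' deposited table of neighbouring genes, 6399 pairs, marks where transcription runs past a gene's end and where it reaches into the next gene. It holds 19 pairs with one of the 32 genes upstream and 16 with one downstream. Run-past transcription from Dnajb9 towards Lrrn3 was marked in all 16 libraries. Reaching into the next gene was marked from Manf into Rbm15b in 14 of the 16 libraries, with 0 of 2 at 7 h of H2O2.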
